A study of Mus musculus with 8 samples.

Results

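The 10 genes described here code for subunits of the transcription factor AP-1 and for close relatives of these subunits, and they were followed in nuclei of the mouse iris. They were chosen by name (*Fos*, *Fosb*, *Fosl1*, *Fosl2*, *Jun*, *Junb*, *Jund*, *Atf3*, *Batf* and *Maff*), and they are 10 of the 22873 genes in the table. They hold 35093 of the 109565284 unique molecular identifiers (UMIs, each standing for 1 captured transcript) that were counted in 34357 nuclei. The nuclei came from 8 libraries of single nucleus RNA-seq, each made from a pool of 5 or 6 irises and with varying amounts of ciliary body attached. All mice were wild type female albinos, 6 to 8 weeks old. For the 2 dilated libraries, 5% phenylephrine, an alpha-adrenergic agonist, and 1% cyclopentolate, a muscarinic antagonist, had been dropped on the eyes every hour and the mice sat in the dark. For the 3 constricted libraries, drops of 5% pilocarpine, a muscarinic agonist, were given in the light. Either treatment lasted 6.5 hours, and the 3 untreated libraries came from mice that had no drops. The drug, the lighting and the handling therefore cannot be told apart in any comparison with untreated irises. Between dilated and constricted irises, the drugs and the lighting cannot be told apart either.

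AP-1 is a dimer of leucine zipper proteins. JUN, JUNB and JUND pair with each other or with a FOS protein, whereas FOS proteins need a partner of another family to bind DNA. *Fos*, *Fosb*, *Junb* and *Atf3* are classic immediate early genes: their transcription starts within minutes of a stimulus, without the need for new protein, and their transcripts are short lived. *Jund* is usually present without a stimulus. ATF3 is a stress-responsive relative that often acts as a repressor, BATF is best known from lymphocytes and other leukocytes, and MAFF is a small MAF protein that lacks a domain for activating transcription. In smooth muscle and in neurons, calcium entry, kinase cascades and mechanical stretch are known triggers of the early members.

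Levels are given as CPM, the UMIs of a gene per 1000000 UMIs of the summed nuclei of a cell type in a library, and cell types are those assigned by the authors. They are dilator muscle, sphincter 1 and sphincter 2 muscle, iris pigment epithelium (iris PE), ciliary body epithelium (CBE), other ciliary body cells (CB), stroma 1, stroma 2, leukocytes and endothelial cells. The libraries held 1274 to 7321 nuclei and 5189437 to 25136427 UMIs. The dilator markers *Adra1a*, *Nos1* and *Chrm2* were higher in dilator nuclei than in any other cell type over all libraries together. *Myh11*, also a fixed dilator marker, ranked 3 there. In the dilated libraries *Chrm2* averaged 285 CPM in endothelial and 253 CPM in dilator nuclei. At least 1 fixed marker was highest in its own type for all types except CB, but others were not. In sphincter 1, *Myh11* ranked 2. In sphincter 2 only *Myh11* was first, with *Adra1a* and *Syt1* at 2 and *Chrm3* at 3. In CBE only *Aqp4* was first, with *Zic1* at 2 and *Pax6* at 6, and in iris PE *Pax6* and *Rbfox3* ranked 2. In CB, the muscle markers *Myh11* and *Acta2* ranked 9 of 10, at 55.1 and 43.0 CPM over all libraries, so the name CB is used here as the authors' label only. Dilated library 2 stood above dilated library 1 for most members. Dilated library 1 had the highest mean share of mitochondrial transcripts in dilator nuclei, 0.0885%, against 0.0308% to 0.0547% elsewhere. Finally, 63 cell barcodes of untreated library 1 also occurred in dilated library 1, which is 4.26% of the nuclei of untreated library 1, and 59 of these pairs had the same cell type, whereas no other pair of libraries shared more than 18. A test without all nuclei whose barcode occurred in another library gave the same number of member and cell type pairs past the threshold, 21.

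Promoters of the members that rose after dilation and had the most UMIs are printed because these genes rose together in dilator muscle. *Fosl1*, which also belongs here by its counts, has no entry in the table of promoters. RefSeq gives a start for 9 of the 10 members, and for 5 of these the 250 bases before it are printed from the mouse build GRCm38.p6 (mm10), 5′ to 3′ on the strand of the gene. Capitals mark TGACG, the core of the element bound by CREB and ATF proteins, and TGACATCA, the AP-1 like element of the *Jun* promoter, on either strand.
Fos, chr12:85473640-85473889, plus strand: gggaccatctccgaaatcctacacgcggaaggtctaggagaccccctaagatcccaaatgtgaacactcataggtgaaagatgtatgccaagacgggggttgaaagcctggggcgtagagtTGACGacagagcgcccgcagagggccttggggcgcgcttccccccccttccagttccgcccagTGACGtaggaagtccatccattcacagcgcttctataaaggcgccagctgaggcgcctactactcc
Junb, chr8:84978749-84978998, minus strand: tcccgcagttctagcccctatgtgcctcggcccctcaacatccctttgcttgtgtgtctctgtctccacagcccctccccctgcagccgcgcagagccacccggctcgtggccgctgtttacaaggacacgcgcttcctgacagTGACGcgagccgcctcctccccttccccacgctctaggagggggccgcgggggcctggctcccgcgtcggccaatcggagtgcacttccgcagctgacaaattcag
Jun, chr4:95052223-95052472, minus strand: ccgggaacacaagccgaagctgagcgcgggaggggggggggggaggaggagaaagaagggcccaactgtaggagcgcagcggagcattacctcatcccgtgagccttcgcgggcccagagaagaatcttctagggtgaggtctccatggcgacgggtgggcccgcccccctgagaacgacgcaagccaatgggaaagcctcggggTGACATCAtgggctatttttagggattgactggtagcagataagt
Fosl2, chr5:32136222-32136471, plus strand: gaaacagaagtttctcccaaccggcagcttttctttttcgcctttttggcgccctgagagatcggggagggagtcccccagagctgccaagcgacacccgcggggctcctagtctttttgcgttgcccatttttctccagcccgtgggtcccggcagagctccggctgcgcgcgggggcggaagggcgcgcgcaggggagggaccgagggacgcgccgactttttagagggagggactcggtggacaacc
Jund, chr8:70697489-70697738, plus strand: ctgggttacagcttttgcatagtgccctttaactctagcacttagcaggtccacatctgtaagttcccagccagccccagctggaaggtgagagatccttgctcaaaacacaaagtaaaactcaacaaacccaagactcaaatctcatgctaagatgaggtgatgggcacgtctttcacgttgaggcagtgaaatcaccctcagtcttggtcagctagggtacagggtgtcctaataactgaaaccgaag

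In the *Fos* window TGACG began 129 and 66 bases before the start, in the *Junb* window 106 bases before it, and in the *Jun* window TGACATCA began 45 bases before it. Neither motif was found in the windows of *Fosl2* and *Jund*. TGACG also occurred in the windows of *Fosb*, *Atf3* and *Batf*, and *Maff* holds the full palindrome TGACGTCA, which contains TGACG on both strands, 29 bases before one of its 3 starts. Before another of these, TGACG began 122 bases and TGACATCA 45 bases ahead of the start. Of all 32851 promoter windows of this length, 17.8% held TGACG, 1.55% TGACGTCA and 2.93% TGACATCA. The AP-1 site itself, TGANTCA, occurred in 6.75% of the windows and the CArG box bound by SRF in 1.47%. Neither was in the window of a member, and sites more than 250 bases before a start were not searched. The RefSeq start of *Jund* lies before the start of the gene in GENCODE, the annotation of mm10 used for positions, so its window may not be the one in use. *Jun* (chr4:95049034-95052222, minus strand) and *Jund* (chr8:70698949-70700616, plus strand) are single exon genes. *Fos* (chr12:85473890-85477273, plus strand) and *Junb* (chr8:84974484-84978718, minus strand) are short, with introns on 30.5% and 45.7% of their length, whereas 95.5% of *Atf3* (chr1:191170296-191218039, minus strand) is intron. *Prdx2* overlaps *Junb* and *Junos* overlaps *Jun* on the opposite strand. Because reads from exons and introns were both counted, levels are compared between samples and cell types, and not between genes.

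In dilator muscle, the 4 genes of the FOS family had their highest level in dilated library 2. *Fos*, the archetype of the immediate early genes, measured 9.35, 1.83 and 1.11 CPM in untreated libraries 1, 2 and 3. It measured 1.94, 3.55 and 0.711 CPM in constricted libraries 1, 2 and 3, and 14.7 and 180.3 CPM in dilated libraries 1 and 2. Both dilated libraries thus stood above all others, but dilated library 1 was close to untreated library 1, and the pair of dilated libraries differed 12.3-fold. *Fos* rose by a log2 fold change of 5.47 ± 0.96 (SE; adjusted p = 0.00249, edgeR quasi-likelihood test as for all adjusted p-values below, dilated against untreated). *Fosb*, a second early gene of the family, had 1 UMI in all untreated and 0 in all constricted dilator nuclei, and 1 and 35 UMIs in dilated libraries 1 and 2. It was too sparse for the test, and its level over both dilated libraries was at least 9.24-fold above the limit that a count of 0 allows in the constricted ones (3 counts over the group).

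*Fosl1* and *Fosl2* code for FRA1 and FRA2, the later and longer lived FOS proteins. *Fosl2* measured 13.7, 8.87 and 8.07 CPM in untreated, 10.3, 20.4 and 17.5 CPM in constricted, and 21.0 and 76.5 CPM in dilated dilator nuclei. The lower dilated library exceeded the highest constricted one by a small margin, and *Fosl2* rose by 2.56 ± 0.49 on the log2 scale against untreated (adjusted p = 0.00398). *Fosl1* measured 11.2, 16.2 and 17.9 CPM in untreated, 14.7, 18.6 and 28.2 CPM in constricted, and 27.7 and 52.5 CPM in dilated dilator nuclei. It rose by 1.52 ± 0.34 against untreated (adjusted p = 0.0102), the smallest log2 fold change among the members tested, and constricted library 3 overlapped the dilated range.

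All 3 JUN genes rose, and the dilated libraries lay closer together for *Jun* (1.76-fold) and *Jund* (1.22-fold) than for *Junb* (4.69-fold). *Jun* measured 43.6, 48.0 and 60.4 CPM in untreated, 31.4, 59.4 and 91.7 CPM in constricted, and 201 and 353 CPM in dilated dilator nuclei. Its log2 fold change was 2.63 ± 0.37 (adjusted p = 0.000624), and no library of another condition reached the lower dilated value. *Junb*, an early gene that often tempers the action of JUN, measured 30.5, 21.3 and 17.7 CPM in untreated, 13.4, 9.75 and 26.8 CPM in constricted, and 104 and 486 CPM in dilated dilator nuclei. Its log2 fold change was 3.98 ± 0.55 (adjusted p = 0.000555), and both dilated libraries stood above all others. *Jund* measured 74.8, 63.6 and 94.6 CPM in untreated, 56.3, 90.8 and 160.4 CPM in constricted, and 199 and 243 CPM in dilated dilator nuclei. *Jund* rose by 1.70 ± 0.34 (adjusted p = 0.00506).

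Of the 3 relatives, *Atf3* and *Maff* rose and *Batf* stayed near the limit of detection. *Atf3* measured 1.87, 0.844 and 0.791 CPM in untreated, 0.581, 4.87 and 3.55 CPM in constricted, and 7.80 and 40.3 CPM in dilated dilator nuclei, a log2 fold change of 4.80 ± 0.82 (adjusted p = 0.00201). *Maff* measured 1.87, 0.844 and 0.475 CPM in untreated, 1.16, 0.886 and 0.948 CPM in constricted, and 5.63 and 13 CPM in dilated dilator nuclei, a log2 fold change of 3.61 ± 0.55 (adjusted p = 0.000961). *Batf* had 18, 22 and 20 UMIs in all untreated, constricted and dilated dilator nuclei, respectively, and was not tested.

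**Figure D1:**
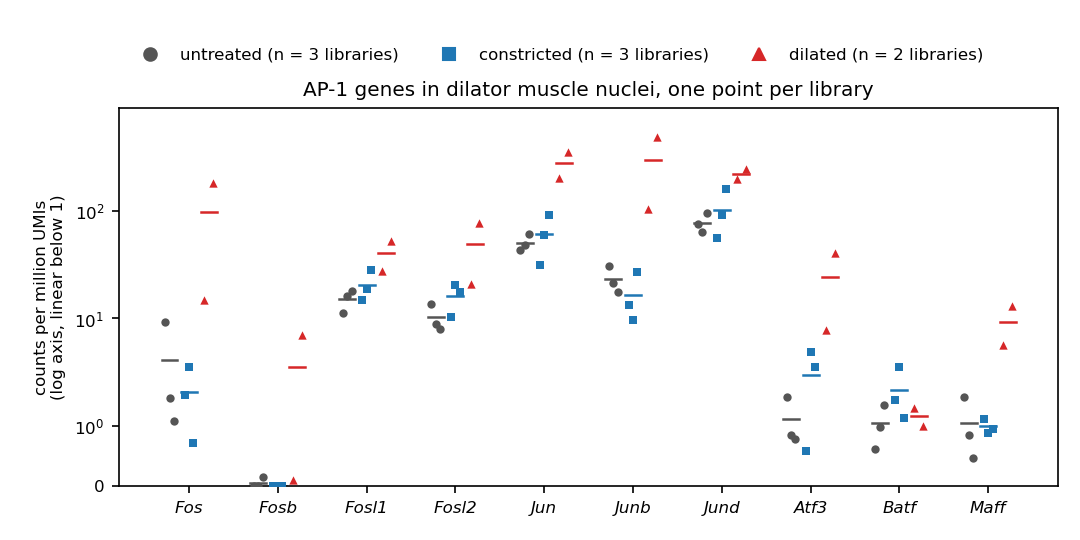
Level of each AP-1 gene in dilator muscle nuclei (vertical axis, CPM on a log axis that is linear below 1), with 1 point per library and a bar at the mean of the 3 untreated, 3 constricted or 2 dilated libraries. For *Junb* the dilated points are at 104 and 486 CPM and all others at or below 30.5 CPM, whereas the *Batf* points of the 3 conditions overlap.

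In sum, 8 members were tested in dilator muscle, and all 8 rose in dilated against untreated irises. Of the 15395 genes tested there, 7.2% rose by the same rule (an adjusted p under 0.05 and an absolute log2 fold change above 0.6). The median log2 fold change was 3.12 over the members tested and 0.02 over all genes tested. In the same test 6.14% of genes fell. The filter asks for a minimum level in at least 2 libraries. Over all cell types, 12 of the 41 pairs of a member and a cell type that passed it did so only through the dilated libraries. Of these 12, 5 were called (*Maff* in dilator muscle, *Jun* and *Junb* in sphincter 1, and *Junb* in sphincter 2 and CB), and the filter favoured such calls. Ranked by log2 fold change among the 15395 genes, *Fos* was at place 9, *Atf3* 17, *Junb* 29, *Maff* 40, *Jun* 95, *Fosl2* 104, *Jund* 283 and *Fosl1* 353. More nuclei with a transcript and more transcript per nucleus cannot be told apart in these sums, and the nuclei themselves are described further on. Without dilated library 2, 5 members still passed the test (*Jun*, *Junb*, *Jund*, *Atf3* and *Maff*), and *Fos*, *Fosl1* and *Fosl2* did not, at log2 fold changes of 2.49, 0.91 and 1.24 (adjusted p = 0.0502, 0.142 and 0.0556). Without dilated library 1 the log2 fold changes of *Fos* and *Junb* were 6.39 and 4.73.

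The library numbers in the labels fall into series, and dilated library 1 is in a series with untreated library 1 and dilated library 2 with untreated libraries 2 and 3. Within the first series, the log2 ratio of dilated to untreated was 0.65 for *Fos*, 0.62 for *Fosl2*, 1.31 for *Fosl1*, 2.20 for *Jun*, 1.76 for *Junb* and 1.41 for *Jund*. Within the second, against the mean of both untreated libraries, it was 6.94 for *Fos*, 3.18 for *Fosl2*, 1.62 for *Fosl1*, 2.70 for *Jun*, 4.64 for *Junb* and 1.62 for *Jund*. Hence all 6 ratios were above 0 in either series, and those of *Fos*, *Fosl2* and *Junb* differed most between the series. A single dilated library in each series leaves these ratios without a test. What the series stand for is not given in the sources used here.

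The share of dilator nuclei that held a UMI of a member also differed. Each nucleus was thinned to 1000 UMIs for this comparison, which left out 26 of 4357 untreated, 5 of 3376 constricted and 3 of 3873 dilated dilator nuclei. *Junb* was then found in 2.75%, 2.22% and 1.88% of untreated nuclei, in 1.31%, 0.234% and 3.22% of constricted nuclei, and in 8.73% (95% Wilson interval 7.70 to 9.89) and 31.0% (28.6 to 33.6) of nuclei in dilated libraries 1 and 2. *Fos* was found in at most 0.5% of thinned nuclei in any untreated or constricted library, and in 1.68% (1.25 to 2.25) and 15.3% (13.5 to 17.4) in the dilated ones. These intervals cover counting error only. Without thinning, 4.79% and 35.6% of dilated dilator nuclei had a *Fos* UMI, at a median of 3758 UMIs per nucleus over both libraries. Endothelial nuclei were too few and too shallow to give a background share: 0 of 49 and 0 of 24 in the dilated libraries had one, which allows up to 6.12% and 12.5%, at a median of 1889 UMIs. In sphincter 1 nuclei of dilated library 2, thinned in the same way, the share was 0.775% (0.137 to 4.26).

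Among nuclei with a UMI, counted without thinning, those of both dilated libraries held more *Jun* UMIs on average than those of any other library, whereas for *Junb* dilated library 1 lay within the untreated range. Dilator nuclei with a *Junb* UMI had on average 1.2 to 1.88 of them in untreated, 1.05 to 1.2 in constricted, and 1.74 and 3.05 in dilated libraries. For *Jun* these means were 1.27 to 1.34 in untreated, 1.13 to 1.31 in constricted, and 1.89 and 2.42 in dilated libraries. The *Fos* level of untreated library 1 rested on 4 nuclei with 3.75 UMIs on average, 1 of them with 12. At 1000 UMIs, at least 1 of the 10 members was found in 12.9% to 26.5% of dilator nuclei of the 6 untreated and constricted libraries, and in 38.6% and 65.5% of those of the dilated ones. At least 2 members were found in 0.622% to 3.22% of the former and in 7.56% and 30.9% of the latter.

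Nuclei with *Fos* held *Junb* more often than nuclei without it. In dilated library 2, 44.5% of the 200 thinned dilator nuclei with a *Fos* UMI also had a *Junb* UMI, against 28.6% of those without. In dilated library 1 the shares were 18.6% of 43 nuclei and 8.56%. For *Jun* the shares were closer. Of nuclei with a *Jun* UMI, 32.3% had *Junb*, against 30.6% of those without, in dilated library 2, and 10.4% against 8.43% in dilated library 1. These are descriptions of 2 libraries, with no test over nuclei.

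**Figure D2:**
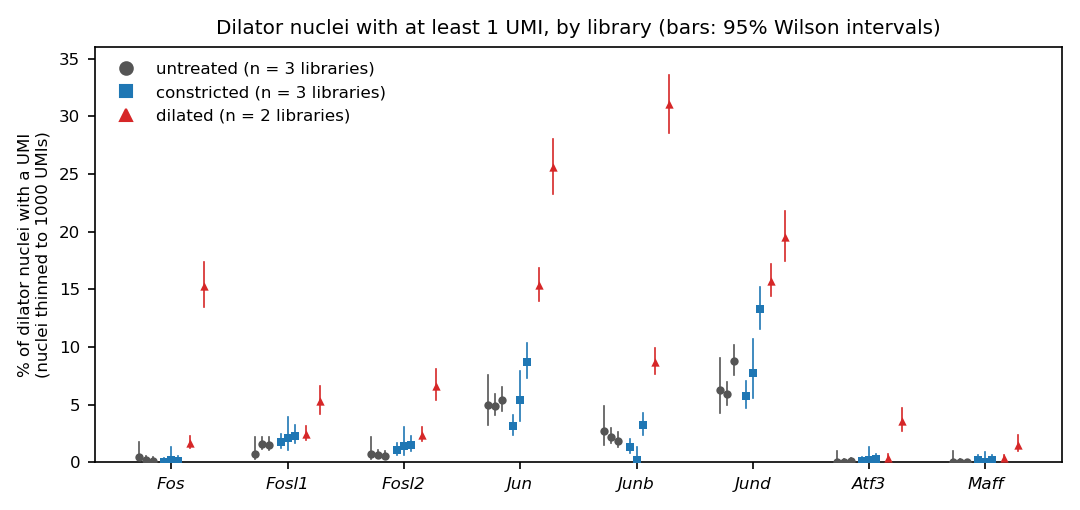
Percent of dilator nuclei with at least 1 UMI of a gene after thinning each nucleus to 1000 UMIs (vertical axis), with 1 point per library and its 95% Wilson interval, for untreated, constricted and dilated libraries. The *Junb* points of the dilated libraries are at 8.73% and 31.0%, above the 6 others, and the *Fos* points at 1.68% and 15.3%.

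The share of each gene in its family's UMIs is given per library, with no test. Of the UMIs of *Jun*, *Junb* and *Jund* together in dilator nuclei, *Junb* took 10.3% to 20.5% in untreated, 6.09% to 13.2% in constricted, and 20.6% and 44.9% in dilated libraries, so that dilated library 1 was next to the highest untreated one. *Jund* took 47.9% to 54.8% in untreated, 55.7% to 57.5% in constricted, and 39.6% and 22.5% in dilated libraries, and *Jun* 29.3% to 39.9% throughout. Among the FOS genes, *Fos* took 4.07% to 27.3% in untreated, 1.53% to 8.33% in constricted, and 23.1% and 57.0% in dilated libraries, so that its share in dilated library 1 lay within the untreated range.

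Outside the dilator muscle, the members that rose were JUN genes, *Fos* in iris PE and *Fosl2* in stroma 2. Over the 10 cell types, 41 of the 100 pairs of a member and a cell type were tested, and 21 rose and 0 fell in dilated against untreated irises, in 7 cell types. *Jun* and *Junb* rose in 5 cell types each, *Jund* in 4, *Fos* and *Fosl2* in 2 each, and *Fosl1*, *Atf3* and *Maff* in 1. Of these calls, 5 passed the filter only through the dilated libraries. They include *Junb* in sphincter 1, sphincter 2 and CB and *Jun* in sphincter 1. Nothing is therefore read from the number of cell types. The share of all genes that rose is given with each of these 7 cell types. The direct tests of differences between cell types are given further on. Of the 41 pairs, 34 had an unadjusted p under 0.05, but the share of all genes at that p was not counted, so nothing is read from this. *Junb* had a higher level in both dilated libraries than in each of the 6 others in all 10 cell types, and *Fos* in 9, the exception being endothelial cells, where its dilated level was 0. Among all genes tested that order was found in 8.81% in dilator muscle, 5.76% in sphincter 1, 5.46% in sphincter 2, 4.27% in iris PE, 2.4% in CBE, 2.57% in CB, 7.07% in stroma 1, 5.11% in stroma 2, 6.24% in leukocytes and 3.18% in endothelial cells. These shares cover only genes that passed the filter, as *Fos* did in 3 cell types and *Junb* in 8. In sphincter 1 the *Fos* order rests on 2 UMIs in dilated library 1. The order was found in 7 cell types for *Jund*, 5 for *Jun*, 4 for *Fosl2* and 3 for *Maff*. For *Fosb* and *Atf3* it was found in 2 each, for *Batf* in 1 and for *Fosl1* in 0. Nothing is read from these counts of cell types.

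**Figure D3:**
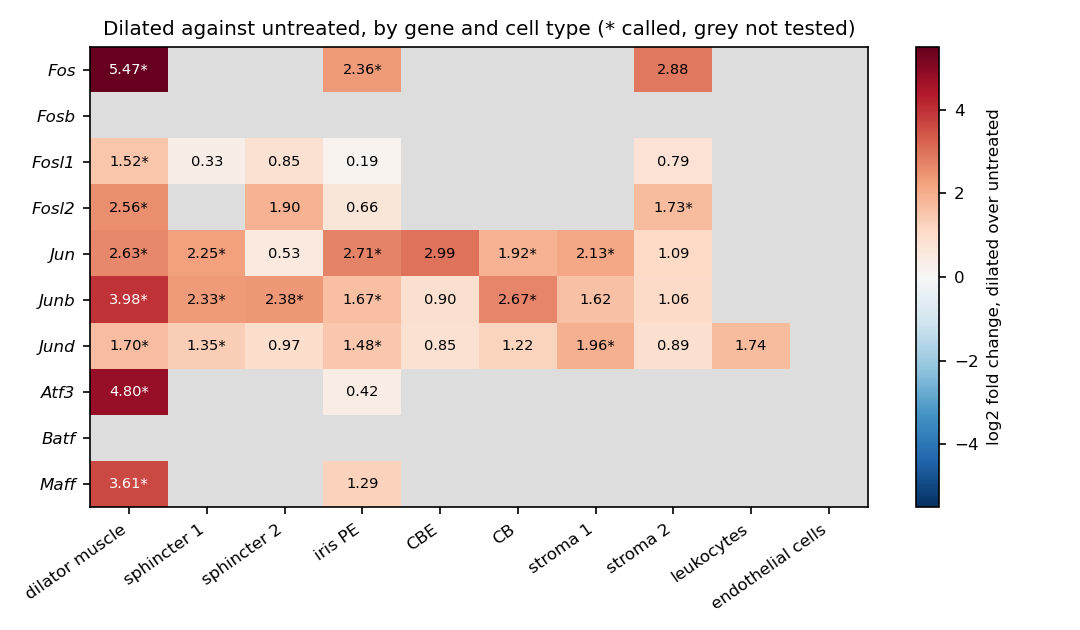
Log2 fold change of dilated over untreated irises for each AP-1 gene (rows) in each cell type (columns), as color and number, with an asterisk where the gene passed the test and grey where it was too sparse to be tested. The dilator muscle column holds 8 called genes, from 1.52 for *Fosl1* to 5.47 for *Fos*, and the endothelial column none.

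In the iris PE, the pigmented layer that lies against the dilator muscle, *Fos* and all 3 JUN genes rose. There 4 of 8 members tested rose, where 0.453% of all genes tested rose and 0.142% fell. *Jun* measured 29.3, 28.2 and 17.1 CPM in untreated, 7.56, 20.5 and 28.4 CPM in constricted, and 133 and 173 CPM in dilated iris PE, a log2 fold change of 2.71 ± 0.35 (adjusted p = 0.00384). *Fos* measured 23.4, 12.1 and 6.75 CPM in untreated, 2.30, 2.46 and 4.49 CPM in constricted, and 44.5 and 76.0 CPM in dilated iris PE, a log2 fold change of 2.36 ± 0.37 (adjusted p = 0.0131). Unlike in dilator muscle, both dilated libraries were within a factor of 1.71 of each other. *Junb* measured 51.8, 125 and 74.8 CPM in untreated, 19.4, 27.9 and 27.3 CPM in constricted, and 248 and 290.4 CPM in dilated iris PE, a log2 fold change of 1.67 ± 0.28 (adjusted p = 0.0182). *Jund* rose by 1.48 ± 0.27 (adjusted p = 0.0263). Without dilated library 2, *Jun* still passed, and *Fos*, *Junb* and *Jund* did not, at log2 fold changes of 1.87, 1.51 and 1.19. The calls of *Fos*, *Junb* and *Jund* were also lost without untreated library 3, and those of *Fos* and *Jund* without untreated library 2. *Jund* was lost without untreated library 1 or constricted library 2 as well.

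*Fosb* in the iris PE was found mostly in 1 library. It had 81 UMIs (27.7 CPM) in dilated library 2, 1 UMI in dilated library 1, and 0 to 14 UMIs in the others. *Atf3* had 16 UMIs in untreated library 1 and 0 in both other untreated libraries, against 2.08 and 3.42 CPM in the dilated ones, and its log2 fold change was 0.42 ± 1.36 (adjusted p = 0.993), a value that changed sign under several alternatives. *Fosl1* (0.19 ± 0.37), *Fosl2* (0.66 ± 0.47) and *Maff* (1.29 ± 0.46) did not pass either. The *Maff* libraries did not overlap, with 1.42 to 3.34 CPM in untreated, 0.657 to 1.12 CPM in constricted, and 4.79 and 5.72 CPM in dilated iris PE. However, *Maff* passed the filter in iris PE only through the dilated libraries, so nothing is read from this order.

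In the sphincter muscles, which the cyclopentolate relaxes, *Junb* rose in both types. In sphincter 1 it measured 10.8, 17.5 and 23.5 CPM in untreated, 29.6, 18.2 and 13.3 CPM in constricted, and 54.5 and 138 CPM in dilated libraries, a log2 fold change of 2.33 ± 0.39 (adjusted p = 0.00194). *Jun* measured 43.0, 11.2 and 9.93 CPM in untreated, 3.29, 6.05 and 23.2 CPM in constricted, and 40.9 and 92.3 CPM in dilated sphincter 1, so that dilated library 1 lay below untreated library 1. *Jun* (2.25 ± 0.53, adjusted p = 0.0234) and *Jund* (1.35 ± 0.35, adjusted p = 0.0416) were called there too. Without dilated library 2, none of the 3 was called (adjusted p = 0.728 for *Jun*, 0.394 for *Junb* and 0.642 for *Jund*), nor was any by DESeq2, and *Jun* and *Jund* were also lost without untreated library 2 or 3. Of all genes tested in sphincter 1, 0.633% rose and 1.32% fell, and because *Jun* and *Junb* passed the filter only through the dilated libraries, nothing is read from the count of members. In sphincter 2, *Junb* rose by 2.38 ± 0.46 (adjusted p = 0.00172) and was the single call among 5 members tested (1.46% of genes rose and 1.4% fell). This call was lost without dilated library 2 (log2 fold change 1.44), without untreated library 3 and by DESeq2. As *Junb* passed the filter in sphincter 2 only through the dilated libraries, nothing is read from the count of members there either. *Jun* did not pass in sphincter 2, with 55.0, 58.3 and 59.3 CPM in untreated, 42.2, 28.9 and 54.9 CPM in constricted, and 85.2 and 74.9 CPM in dilated libraries. *Fos* in sphincter 2 was seen mostly in dilated library 2, at 167 CPM against 11.1 CPM in dilated library 1 and 1.48 to 9.16 CPM in untreated libraries, and it was too sparse to be tested.

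In the ciliary body, *Jun* and *Junb* rose in CB and no member passed in CBE. In CB, *Junb* measured 23.1, 19.8 and 30.4 CPM in untreated, 18.6, 19.3 and 14.0 CPM in constricted, and 136 and 168 CPM in dilated libraries, a log2 fold change of 2.67 ± 0.30 (adjusted p = 0.000102). *Jun* rose by 1.92 ± 0.32 there (adjusted p = 0.0111, and 0.0638 without dilated library 2). Of all genes tested in CB, 0.0665% rose. Because *Junb* passed the filter in CB only through the dilated libraries, nothing is read from the count of members there. In CBE, where 0.0122% of genes rose, 0 of 3 members tested passed. Their log2 fold changes were 2.99 ± 0.70 for *Jun*, 0.90 ± 0.32 for *Junb* and 0.85 ± 0.28 for *Jund* (adjusted p = 0.25, 0.781 and 0.686). *Jun* passed the filter in CBE only through the dilated libraries.

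In stroma 1, the cells marked by *Sox10*, *Jun* rose by 2.13 ± 0.35 (adjusted p = 0.00443) and *Jund* by 1.96 ± 0.32 (adjusted p = 0.00357), 2 of 3 members tested, where 0.786% of genes rose and 0.382% fell. *Jund* measured 16.1, 18.3 and 21.6 CPM in untreated, 22.3, 12.9 and 32.7 CPM in constricted, and 55.7 and 95 CPM in dilated stroma 1. Neither *Jun* nor *Jund* passed without dilated library 2 (adjusted p = 0.211 and 0.134). *Junb* in stroma 1 was at 1.62 ± 0.45 (adjusted p = 0.0837). In stroma 2, the cells marked by *Tfap2b* and *Pdgfra*, *Fosl2* alone among 6 members tested rose (1.35% of genes rose and 0.383% fell), with 4.83, 5.32 and 3.11 CPM in untreated, 8.97, 9.69 and 9.18 CPM in constricted, and 14.6 and 13.4 CPM in dilated libraries (log2 fold change 1.73 ± 0.35, adjusted p = 0.0281). This call was lost without dilated library 1 (adjusted p = 0.146), without dilated library 2 (adjusted p = 0.0807) and without untreated library 2 or 3. *Fos* in stroma 2 had a larger log2 fold change, 2.88 ± 0.67, with an adjusted p of 0.0545. Against constricted irises *Fosl2* did not pass in stroma 2 (0.64 ± 0.34, adjusted p = 0.672). There *Fos* (4.45 ± 0.88, adjusted p = 0.0496) and *Junb* (2.49 ± 0.41, adjusted p = 0.0234) passed, where 0.383% of genes rose and 0.149% fell. However, *Fos* passed the filter in stroma 2 only through the dilated libraries.

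Leukocytes and endothelial cells were few, and 1 and 0 members were tested. *Jund* in leukocytes did not pass (1.74 ± 0.59, adjusted p = 0.199, where 0.76% of genes rose and 0.562% fell). Their *Fos* counts were 0, 0 and 0 UMIs in untreated, 1, 0 and 0 UMIs in constricted, and 11 and 11 UMIs in dilated libraries, the same count in either dilated library and at least 14.6-fold above the limit that a count of 0 allows in untreated leukocytes (3 counts over the group). *Fosl2* in leukocytes had 13 and 8 UMIs in dilated libraries and at most 2 in each other library. The dilator markers differed in leukocytes too. In untreated, constricted and dilated leukocytes *Adra1a* averaged 11.4, 38.4 and 65.8 CPM and *Nos1* 8.84, 52.4 and 32.9 CPM. *Chrm2* averaged 60.5, 50.7 and 6.53 CPM in the same order. The part of RNA from other cell types in these leukocyte counts was not tested. *Batf* had its highest levels in leukocytes and endothelial cells. In leukocytes it measured 0, 37.9 and 43.3 CPM in untreated, 10.8, 74.0 and 52.2 CPM in constricted, and 39.2 and 92.5 CPM in dilated libraries, from at most 10 UMIs in each, and the 3 conditions overlapped.

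Sorted by their mean, the untreated levels ordered the cell types differently for each JUN gene. *Junb* was highest in iris PE (84.0 ± 37.6 CPM, SD, n = 3), followed by CBE (62.7 CPM) and leukocytes (53.3 CPM), and lowest in stroma 1 (16.2 CPM), with dilator muscle at place 7 (23.2 ± 6.63 CPM). Every neighbour in that order overlapped the next over the libraries. In dilated irises dilator muscle was first (295 ± 270.4 CPM, n = 2) and iris PE second (269 ± 29.6 CPM), and these ranges overlapped. *Jund* was highest in sphincter 2 (90.7 CPM) and dilator muscle (77.7 ± 15.7 CPM) and lowest in stroma 1 (18.7 CPM) in untreated irises, and in dilated irises dilator muscle was first (221 ± 31.1 CPM) with no overlap with the next type. *Jun* was highest in untreated leukocytes (60.0 CPM, from 0 to 92.8 CPM), followed by sphincter 2 (57.5 CPM) and dilator muscle (50.7 ± 8.71 CPM), and lowest in CBE (5.58 CPM), which did not overlap the type above it. *Fos* was highest in iris PE in untreated irises (14.1 ± 8.50 CPM) and in leukocytes in dilated ones (109 CPM, from 22 UMIs), where dilator muscle was second.

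**Figure D4:**
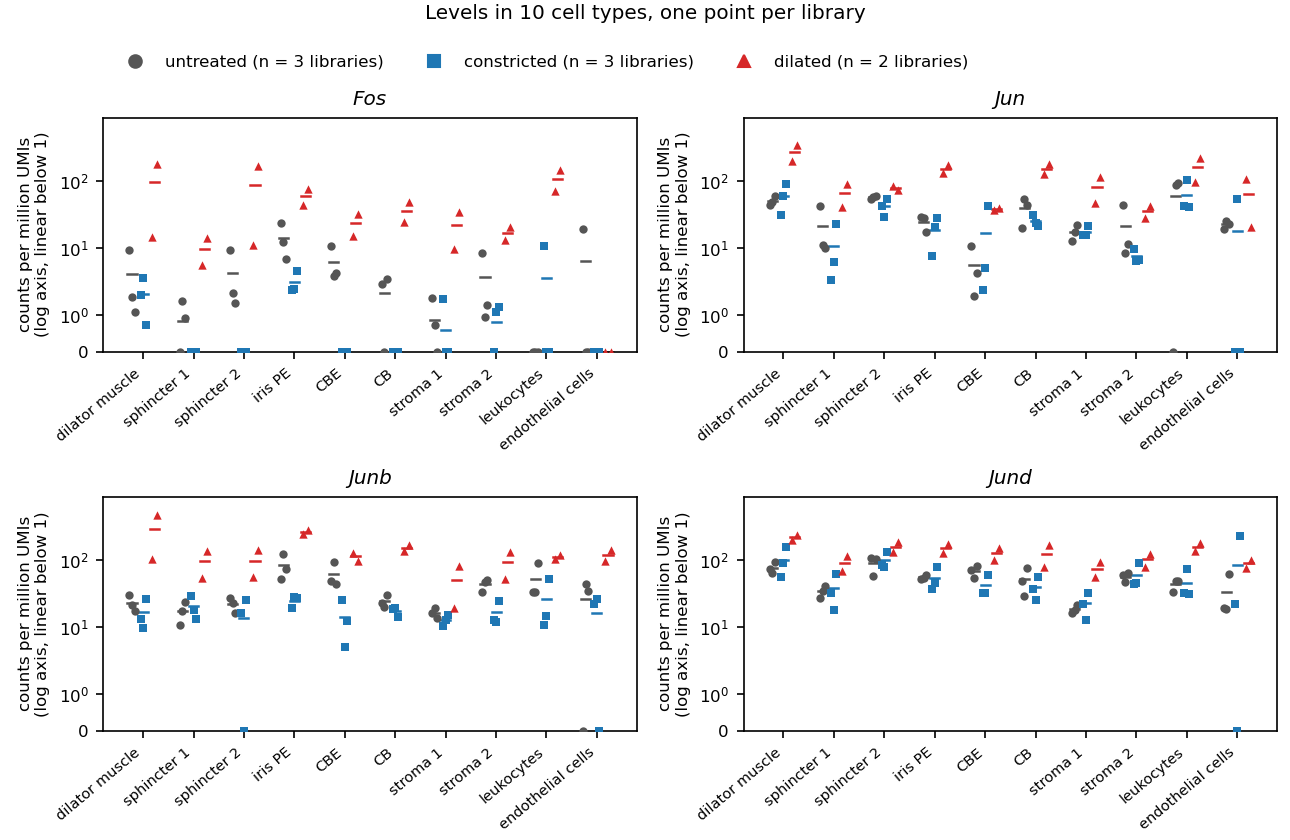
Levels of *Fos*, *Jun*, *Junb* and *Jund* (vertical axes, CPM, log axis linear below 1) in the 10 cell types, with 1 point per library and a bar at the mean of the untreated, constricted or dilated libraries. The *Junb* points of the dilated libraries lie above those of the other 6 in each cell type, and the iris PE has the highest untreated mean at 84.0 CPM.

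Whether dilation acted more on a member in dilator muscle than elsewhere was tested directly, by fitting the 2 types jointly and giving each library its own term. Of 74 pairs tested, 16 differed (adjusted p under 0.05), and in all 16 the effect was smaller outside the dilator muscle. In a joint fit a member could pass the filter through its dilator nuclei alone, so more pairs were tested than in the single types. *Atf3* in CB was tested on 1 UMI there, and *Junb* in leukocytes (57 UMIs) had been too sparse to test alone. Nothing is therefore read from the shared direction. Of all genes tested, the effect was lower than in dilator muscle for 4.04% in sphincter 1, 1.4% in sphincter 2, 6.03% in iris PE, 2.31% in CBE, 1.47% in CB, 3.99% in stroma 1, 4.48% in stroma 2, 0.447% in leukocytes and 0.381% in endothelial cells. It was higher for 2.67%, 0.702%, 6.2%, 1.87%, 1.59%, 1.74%, 3.66%, 0.298% and 0.148%, in the same order. *Junb* accounted for 7 of the 16. The difference of its log2 fold change from that in dilator muscle was -1.73 in sphincter 1, -1.60 in sphincter 2, -1.96 in iris PE, -2.34 in CBE, -2.35 in stroma 1, -2.72 in stroma 2 and -2.53 in leukocytes. In iris PE, *Fos*, *Fosl1*, *Fosl2*, *Atf3* and *Maff* also had smaller effects, with differences of -2.40, -1.21, -1.50, -3.47 and -2.12, but the *Atf3* difference turned to 2.04 without untreated library 1 and was then not called. Without dilated library 2 the differences of *Fos*, *Fosl2* and *Maff* in iris PE were -0.71, -0.59 and -1.46 (adjusted p = 0.314, 0.422 and 0.199), and those of *Junb* in sphincter 1, sphincter 2 and leukocytes were not called. For *Jun* the difference was called in sphincter 2 alone, while in iris PE it was 0.25 ± 0.21 (adjusted p = 0.529). Without dilated library 2, 7 pairs passed, and without untreated library 2 or 3, 8 pairs. The *Junb* differences in CBE, stroma 1 and stroma 2, that of *Jun* in sphincter 2 and that of *Fosl1* in iris PE passed in every alternative run.

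Between constricted and untreated irises no member passed the threshold. Of 41 pairs tested, 0 rose and 0 fell in constricted against untreated irises (edgeR), and DESeq2 called 1. An unadjusted p under 0.05 was found for 7 pairs, 5 of them lower after constriction, and again the share of all genes was not counted. Among all genes tested, 0.0065% rose and 0% fell in dilator muscle, 0.0598% rose and 0.0299% fell in sphincter 2, 0.00708% rose in iris PE and 0.0156% in stroma 2, and none passed in the other types. The smallest adjusted p-values were those of *Junb* in both epithelia. In iris PE, with 51.8 to 125 CPM in untreated and 19.4 to 27.9 CPM in constricted libraries, its log2 fold change was -1.83 ± 0.29 (adjusted p = 0.155). In CBE, with 43.7 to 94.5 CPM in untreated and 5.06 to 25.5 CPM in constricted libraries, it was -2.05 ± 0.45 (adjusted p = 0.122). How many of all genes had untreated and constricted ranges apart was not counted, so nothing is read from these ranges. *Junb* in iris PE passed in the DESeq2 test (log2 fold change -1.79, adjusted p = 3.06e-06). In dilator muscle the log2 fold change of *Junb* was -0.34 ± 0.56.

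The dilated libraries were also set against the constricted ones, a comparison that shares the dilated libraries with the first. All 8 members tested in dilator muscle rose, where 5.59% of genes rose and 4.87% fell. Over the 10 cell types 23 of 41 pairs rose and 0 fell. Among the pairs that rose, *Maff* in dilator muscle and *Jun* and *Junb* in sphincter 1 passed the filter only through the dilated libraries. So did *Junb* in sphincter 2 and CB and *Fos* in stroma 2. The filter favoured such calls, so nothing is read from the number of pairs. An unadjusted p under 0.05 was found for 33 of the 41 pairs, again with no share of all genes to set beside it. Of all genes tested, 1.04% rose and 2.66% fell in sphincter 1, 0.971% and 1.48% in sphincter 2, 0.411% and 0.262% in iris PE, 0.0857% and 0.0367% in CBE, 0.0931% and 0% in CB, 0.269% and 0.168% in stroma 1, 0.383% and 0.149% in stroma 2, and 0.0661% and 0% in leukocytes. In iris PE *Junb* was higher by a log2 fold change of 3.5 ± 0.31 against constricted and 1.67 ± 0.28 against untreated irises, and *Fos* by 4.26 ± 0.46 and 2.36 ± 0.37. In CBE, *Junb* (2.95 ± 0.43, adjusted p = 0.00176) and *Jund* (1.67 ± 0.32, adjusted p = 0.031) passed against constricted irises, where neither had passed against untreated ones.

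The genes whose levels were most like those of a member were sought over the 65 sums of a library and cell type with at least 50 nuclei, among genes with a mean of at least 10 CPM. These sums share libraries, and the values are descriptions only. *Junb* (r = 0.80), *Dbi* (0.72) and *Sik1* (0.71) were most like *Fos*. *Fos* (0.80), *Mat2a* (0.71) and *Btg2* (0.69) were most like *Junb*. *Rpl41* (0.74), *Rpl6* (0.73) and *Tmem158* (0.72) were most like *Jund*, and *Snx5* (0.65), *Bmp2k* (0.60) and *Rpl12* (0.59) most like *Atf3*.

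Other genes of the AP-1 pathway were taken from lists of dimer partners, upstream kinases, factors that bind the promoters of early genes, and textbook targets, 47 genes in all. Of 39 tested in dilator muscle, 10 rose and 2 fell in dilated against untreated irises, beside 7.2% and 6.14% of all genes tested there. Not all 10 passed the filter through libraries other than the dilated ones, so nothing is read from this count. Among 8 dimer partners and related genes tested, *Mafg*, a small MAF gene like *Maff*, rose (1.19 ± 0.14, adjusted p = 0.000198) and *Jdp2*, which codes for a JUN partner and repressor, fell by 0.80 (adjusted p = 0.0286). *Jdp2* was at 15.7 to 20.6 CPM in untreated, 14.1 to 17.7 CPM in constricted, and 8.62 and 8.88 CPM in dilated libraries. *Atf2*, which pairs with JUN, was at 0.00 ± 0.14 (adjusted p = 0.997).

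Of 13 upstream kinases tested, the MAP kinase kinases *Map2k3* (1.01 ± 0.20, adjusted p = 0.00545) and *Map2k4* (0.74 ± 0.17, adjusted p = 0.0121) rose. *Map2k6*, which like *Map2k3* acts on p38 kinases, fell by 1.97 (adjusted p = 0.000327), from 88.5 to 139 CPM in untreated to 24.2 to 31.1 CPM in dilated libraries. *Mapk3*, a terminal kinase of the ERK cascade, did not pass, at a log2 fold change of 0.47 ± 0.23 (adjusted p = 0.206). Of 10 promoter factors tested, *Srf* (1.03 ± 0.26, adjusted p = 0.0195) and *Mef2d* (0.79 ± 0.17, adjusted p = 0.00897) rose.

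Of the 14 textbook targets, 8 could be tested, with 5 higher and 0 lower, against the same 7.2% and 6.14% of all genes. Not all 5 passed the filter through libraries other than the dilated ones, so nothing is read from this count. *Vim*, which codes for vimentin, rose by 2.34 ± 0.18 (adjusted p = 1.25e-05) from 48.0 to 56.1 CPM in untreated to 210 and 244 CPM in dilated libraries. *Timp1*, an inhibitor of metalloproteinases, *Lmna*, the lamin A gene, and *Cd44*, a hyaluronan receptor, rose by 2.65, 1.32 and 1.04. *Cd44* also rose in stroma 1 (1.45 ± 0.17) and *Vim* in iris PE (1.12 ± 0.20).

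**Figure D5:**
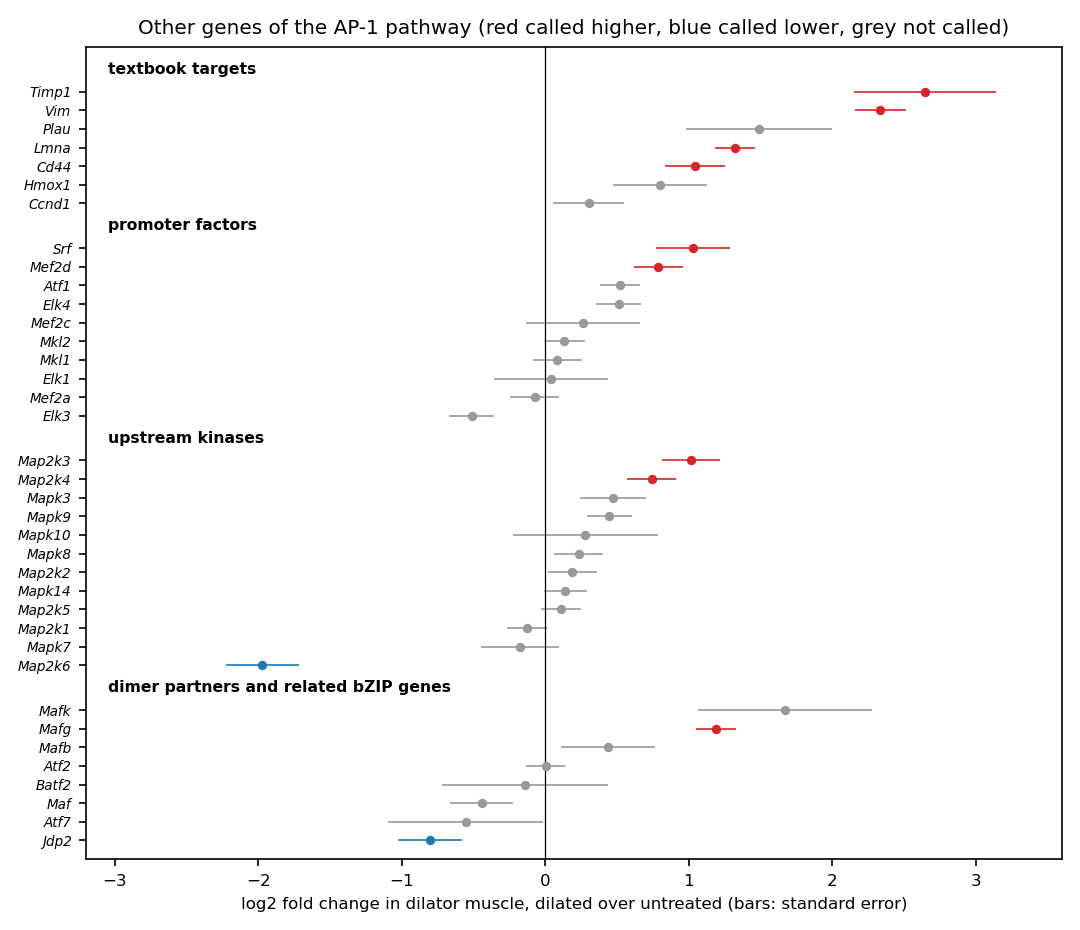
Log2 fold change of dilated over untreated dilator muscle (horizontal axis, bars show the standard error) for 37 of the 39 tested genes of the 4 AP-1 pathway lists, with genes that rose in red, genes that fell in blue and others in grey. *Timp1* is at 2.65 and *Map2k6* at -1.97, and the promoter factors range from -0.51 to 1.03.

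A list of heat shock genes, which respond to stress of tissue or nuclei, moved in the same libraries. Of its 5 genes tested in dilator muscle, *Hspa1b* (2.60 ± 0.46), *Hspa8* (1.29 ± 0.33) and *Hsph1* (0.97 ± 0.19) rose, where 7.2% of all genes rose. *Hspa1b* was at most 1.25 CPM in untreated and 1.55 CPM in constricted libraries, below the filter limit of 1.97 CPM. It passed the filter only through the dilated libraries, so nothing is read from this count. The 6 genes of the list summed to 77.5 to 89.8 CPM in untreated, 69.1 to 112 CPM in constricted, and 121 and 179 CPM in dilated libraries 1 and 2. In the other cell types none of its genes passed, but few could be tested. They were 4 in iris PE and in stroma 2, 2 in CBE, CB and stroma 1, 1 in each sphincter type and 0 elsewhere. In stroma 1 the list summed to at most 67.4 CPM in untreated and constricted libraries, and to 91.7 and 96.0 CPM in dilated ones. In stroma 2 the dilated sums, 105 and 128 CPM, lay within the constricted range of 69.5 to 136 CPM. In dilator muscle, the markers *Chrm2* and *Nos1* fell by 1.13 and 0.91 (adjusted p = 0.00461 and 0.0049), and *Adra1a* was at -0.52 ± 0.24 (adjusted p = 0.175). The part of these changes in the levels of the AP-1 genes was not tested.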

How the data were processed

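Nuclei of mouse irises were profiled by droplet single nucleus RNA-seq (10x 3' chemistry) in 8 libraries: 3 untreated, 3 constricted and 2 dilated. The authors counted UMIs with Cell Ranger 3.1.0 against mm10 with introns, clustered the nuclei with Seurat 4.0.1, named the cell types, and removed nuclei with over 1% mitochondrial transcripts, or under 500 or over 6000 transcripts. The deposited values are raw counts per gene and nucleus, 5189437 to 25136427 per library. The libraries came from 5 batches and 2 sequencing runs. Which library was in which is not given in the sources used here.

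For each library, the UMIs of all nuclei with 1 cell type label were added up, so that libraries are the replicates, and tested with edgeR 4.0.16 (quasi-likelihood, TMM, filterByExpr) in R 4.3.3, all 8 libraries in 1 fit per cell type. P-values were adjusted over all genes tested (Benjamini-Hochberg). Standard errors were derived from the log2 fold change and the F statistic. Each pool of irises is taken as a separate sample, as the labels say. The script was tested on simulated data. DESeq2 1.42.0 was an alternative, as were its size factors, no filter, a term for replicate or series, only the 2 conditions compared, no nuclei above the 95th percentile of UMIs, and leaving out each library. Leaving out nuclei whose barcode is in another library was chosen after seeing the data. No doublet caller was run. All members were named in every cell type. Of the pathway lists, genes past the threshold in dilator muscle and at most 3 others were named. The members and lists were chosen with earlier results of these data known. Of the pathway lists, 2 genes are counted but not reported here by name or value.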

Additional observations from a re-analysis of the deposited data

Results flagged for a closer look

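Each of the following is a difference between the dilation effect on a member in another cell type and that in dilator muscle (log2 fold change there minus that in dilator muscle) that passed the test of the difference itself (edgeR, joint fit with a term for each library). For *Junb* it was -1.73 in sphincter 1, -1.60 in sphincter 2, -1.96 in iris PE, -2.34 in CBE, -2.35 in stroma 1, -2.72 in stroma 2 and -2.53 in leukocytes. For *Jun* it was -2.0 in sphincter 2. *Jund* had -0.803 in CBE and -0.811 in stroma 2, and the CBE value was not called in 6 of 12 alternatives, among them those without either dilated library and without any 1 untreated library. *Fosl1* had -1.19 in sphincter 1 and -1.21 in iris PE. Also in iris PE, *Fos* had -2.40, *Fosl2* -1.50, *Maff* -2.12 and *Atf3* -3.47. The *Atf3* value was -2.45 without dilated library 2 and 2.04 without untreated library 1, and passed in neither. Without dilated library 2 the iris PE values of *Fos*, *Fosl2* and *Maff* were -0.71, -0.59 and -1.46, and they, *Fosl1* in sphincter 1 (-0.65) and *Junb* in sphincter 1, sphincter 2 and leukocytes (-1.03, -0.95 and -1.42) did not pass.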

How the results depend on the processing

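Over 41 log2 fold changes and 646 alternative values, 568 kept their direction and side of the threshold, 37 lost the call, 32 gained one and 9 changed sign. Dilated library 2 weighed most. With each library left out in turn, the members that rose in dilator muscle numbered 5 to 9 (5 without dilated library 2), the pairs that rose against untreated 7 to 28 (7 without dilated library 2, 13 without untreated library 3), the pairs that rose against constricted 10 to 27 (10 without dilated library 2, 12 and 14 without constricted library 2 and 1), the pairs called between constricted and untreated 0 to 1, the differences from dilator muscle 7 to 18, and the other pathway genes 8 to 13. With no filter on low counts, the pairs were 39, 36 and 4 in place of 21, 23 and 0. DESeq2 called 18 pairs against untreated, 17 of them shared, and 1 between constricted and untreated. With the replicate number as a block, 25 pairs rose (20 shared) and 2 fell between constricted and untreated. Same-numbered libraries correlated from -0.03 to 0.43, so the numbers were not taken to pair them. Libraries of 1 series correlated from 0.18 to 0.43 and those of different series from -0.43 to 0.09. These correlations are of deviations from the condition mean in dilator muscle, where the 2 dilated libraries mirror each other. The ends 0.43 and -0.43 are therefore not independent. With the series as a term 28 pairs rose (21 shared). *Atf3* in iris PE changed sign to -0.56 (DESeq2), -0.37 (replicate block), -0.23 (series term), and without 1 library it ranged from -0.68 (untreated library 3) to its highest value without dilated library 1, 0.68, with -0.12 without dilated library 2 and -0.645 without untreated library 2. With 1 library left out, *Fosl1* in iris PE ranged from -0.02163 (untreated library 1; -0.00022 for dilated library 2) to 0.41, and in stroma 2 from -0.05985 (dilated library 2) to 1.44. The cause was not tested. At this depth, 41 of 100 pairs could be tested.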
